A study of Mus musculus with 9 samples.

Results

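Immediate early genes are transcribed within minutes of a growth factor or cytokine signal, from transcription factors that are already in the cell, and many of them are switched on through the RAS, RAF, MEK and ERK kinase cascade. Some of their products close the loop: dual specificity phosphatases remove the activating phosphates from ERK and its relatives, and Sprouty proteins dampen the signal between the receptor and the kinases. In mesenchymal stromal cells, adherent cells of the marrow that answer inflammatory fluids by changing what they secrete, such transcripts are commonly read as a sign of signalling through growth factor and cytokine receptors. The transcripts described here are the MAPK phosphatases Dusp4, Dusp5 and Dusp6, the Sprouty genes Spry2 and Spry4, the transcription factor genes Egr1, Myc and Fosl1, and the early response genes Phlda1 and Ier3. These 10 genes were picked by name, with earlier results of these data known, so counts among them are no independent support. Of the 10, 10 had a row among the 21959 genes of the deposited table.

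RNA was sequenced from a line of mouse mesenchymal stromal cells of bone marrow, marked SV40 in the labels, in 3 groups of 3 libraries. One group received peritoneal fluid (PF) from mice treated with TNBS, a hapten used to provoke colitis in rodents, over 3 days (TNBS PF). Another received PF from control mice (control PF), and the last received phosphate-buffered saline in place of PF (PBS). Exposure lasted 24 h in DMEM/F12 medium with 10% fetal bovine serum in all 3 groups. Serum, itself an inducer of immediate early genes, was thus present in the PBS libraries too. No earlier time was sampled, so the levels are those at 24 h and a response within minutes was not measured. Only a cell line was studied, and nothing in the labels says whether the libraries of a group came from separate cultures or from fluid of separate mice, so the p-values measure the spread between these libraries, which may be technical. In bulk RNA, a change in the number of cells that carry a transcript and a change in its amount per cell cannot be told apart.

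Levels are FPKM, which count the fragments of a gene relative to its length and to the depth of the library. The depth was 25.1, 25.6 and 22.9 M assigned fragments in TNBS PF 1 to 3, 19.8, 18.6 and 21.5 M in control PF 1 to 3, and 17.9, 17.98 and 20.3 M in the PBS libraries 1 to 3. The TNBS PF libraries were thus the deepest. FPKM already holds a scaling by depth, and other scalings of the libraries were run as alternatives. The part of depth in the results was not tested. Across the 9 libraries a gene of the set was read by between 70 fragments (Spry4) and 5527 fragments (Ier3). Of 10 stromal marker genes, 10 were expressed in the libraries, and the listed markers of neutrophils, of B and T cells and of erythroid cells were under 1 FPKM in every library, with S100a9, Csf3r, Ms4a1 and Cd3g at 0. Of 7 macrophage markers, 5 were under 1 FPKM (Ptprc, Adgre1, Csf1r, Lyz2 and Itgam). Cd14 averaged 14.8 FPKM in TNBS PF, 14.4 FPKM in control PF and 12.9 FPKM in PBS, and Cd68 averaged 1.96, 1.64 and 1.92 FPKM in the same order. The summed level of the macrophage list was 16.3 to 18.2 FPKM in TNBS PF, 15.3 to 17.3 FPKM in control PF and 14.4 to 15.8 FPKM in PBS. The summed level of 7 mesothelial markers was 47.7 to 52.3 FPKM in TNBS PF, 40.3 to 41.6 FPKM in control PF and 42.4 to 44.5 FPKM in PBS. Of the 7, Upk3b, Krt8, Lrrn4 and Wt1 were under 1 FPKM throughout. Msln averaged 42.2 FPKM in TNBS PF, 35.6 FPKM in control PF and 38.1 FPKM in PBS, Krt19 averaged 5.79, 3.50 and 3.82 FPKM in the same order, and Krt18 averaged 2.36, 1.77 and 1.68 FPKM. The summed level of the stromal list was 1783 to 1832 FPKM in TNBS PF, 1853 to 1876 FPKM in control PF and 1897 to 1965 FPKM in PBS. The mesothelial sum was highest in TNBS PF and lowest in control PF. The stromal sum was highest in PBS, lower in control PF and lowest in TNBS PF. Neither sum overlapped between any groups, and their part in the results was not tested.

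Promoter windows from RefSeq (build GRCm38.p6, 250 bases before to 50 after the annotated start) were at hand for Dusp5, Dusp6, Spry2 and Ier3, that is for 4 of the 10 genes. They were searched on both strands for the CArG box, to which serum response factor binds, for the AP-1 site TGANTCA, for the cyclic AMP response element TGACGTCA, and for the ETS cores AGGAAG and CGGAAG. The windows of the 3 genes that rose in at least 1 comparison are printed here, with every match in capitals. The first is chr19:53528895-53529194 on the plus strand, the second chr10:99262981-99263280 on the plus strand and the third chr17:35821463-35821762 on the plus strand.
Dusp5: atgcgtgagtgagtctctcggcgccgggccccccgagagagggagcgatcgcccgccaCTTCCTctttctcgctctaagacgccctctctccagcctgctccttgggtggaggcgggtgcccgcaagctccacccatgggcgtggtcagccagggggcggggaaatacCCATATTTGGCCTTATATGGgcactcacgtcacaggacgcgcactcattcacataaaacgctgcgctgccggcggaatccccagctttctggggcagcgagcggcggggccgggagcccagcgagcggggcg
Dusp6: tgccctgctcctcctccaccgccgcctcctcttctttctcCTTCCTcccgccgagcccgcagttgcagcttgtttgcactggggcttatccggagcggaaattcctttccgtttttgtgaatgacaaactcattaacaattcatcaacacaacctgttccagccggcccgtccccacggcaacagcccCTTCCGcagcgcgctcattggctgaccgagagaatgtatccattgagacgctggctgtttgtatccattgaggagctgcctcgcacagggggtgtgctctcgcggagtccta
Ier3: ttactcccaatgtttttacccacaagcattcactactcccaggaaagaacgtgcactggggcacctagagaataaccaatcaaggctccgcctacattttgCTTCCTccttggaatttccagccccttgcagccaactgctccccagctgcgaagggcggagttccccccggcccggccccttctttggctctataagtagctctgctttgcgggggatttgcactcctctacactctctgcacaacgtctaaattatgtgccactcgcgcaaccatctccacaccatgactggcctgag

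The Dusp5 window held 2 CArG boxes side by side, CCATATTTGG at 82 to 73 bases and CCTTATATGG at 72 to 63 bases before the start, and 1 AGGAAG core on the opposite strand at 192 to 187 bases before it. A CArG box stood in 1.63% of the 32851 promoter windows of the same length, and 2 or more stood in 6 windows, or 0.0183%. The Dusp6 window held 1 AGGAAG core at 210 to 205 bases and 1 CGGAAG core at 62 to 57 bases before the start, both on the opposite strand, against 35.4% and 16.9% of all windows with these cores. The Ier3 window held 1 AGGAAG core at 149 to 144 bases before the start. The Spry2 window had no match to any of the 5 motifs, TGANTCA stood in 7.81% of all windows and TGACGTCA in 1.79%, and neither stood in any of the 4. The CArG box was singled out after the sequences had been seen, and a match is letters only, with no measurement of binding here.

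The 10 genes differed widely in level. Ier3, which encodes a stress-induced regulator of cell survival, was the most abundant at 181.5 ± 8.27 FPKM in TNBS PF, 164.2 ± 8.24 FPKM in control PF and 152.7 ± 13.8 FPKM in PBS (SD, n = 3 each). Its mean over the 9 libraries was above 98.1% of the 10537 genes tested. Myc, Egr1 and Dusp6 followed in that order in every group, and each was separate from the next except Myc and Egr1 in PBS, whose libraries overlapped. Phlda1 and Dusp5 lay near the median of the tested genes (8.65 FPKM) and overlapped each other in TNBS PF and in PBS. Spry2, Fosl1 and Dusp4 lay lower, where Spry2 overlapped Fosl1 and Fosl1 overlapped Dusp4 in TNBS PF, Spry2 overlapped Dusp4 and Dusp4 overlapped Fosl1 in control PF, and Dusp4 overlapped Spry2 in PBS. Spry4 was the lowest in every group, above only 3.67% of tested genes.

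**Figure D1:**
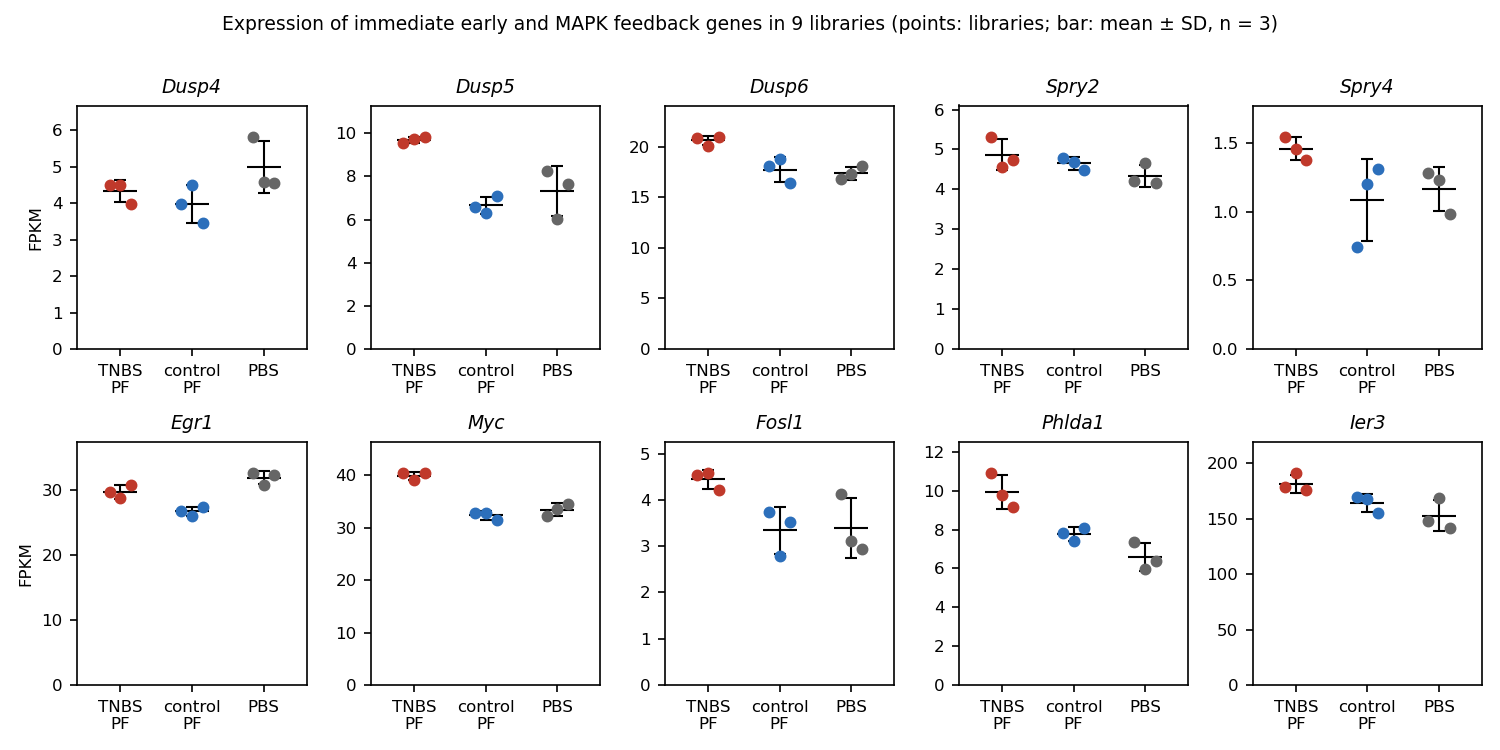
Level in FPKM of each of the 10 genes in each library (points), with the mean and SD of the 3 libraries of TNBS PF, control PF and PBS, 1 panel a gene on its own scale. The 3 TNBS PF points of Dusp5, Dusp6, Spry4, Myc, Fosl1, Phlda1 and Ier3 lie above the other 6, and Egr1 is lowest in control PF.

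In TNBS PF against control PF, 5 of the 10 transcripts rose: Dusp5 by 1.46-fold in mean FPKM, Phlda1 by 1.28-fold, Myc by 1.24-fold, Dusp6 by 1.16-fold and Egr1 by 1.11-fold. This comparison asks what fluid of TNBS-treated mice does beyond that of control mice. The calls come from limma on log2(FPKM + 1) with Benjamini-Hochberg adjustment over 10537 genes at 0.05, a scale on which fold changes of low genes are understated. Against the 5 of 10, 5.15% of all tested genes were called higher, 5.45% lower and 10.6% in either direction. A log2 fold change above 0 was found for 10 of 10, against 44.3% of tested genes, and their median was 0.23, against −0.01 over all tested genes. The number called was 2 without TNBS PF 1, 3 without TNBS PF 3, 3 without control PF 2, and 8 by limma voom on fragments recovered from the FPKM, which adds Fosl1, Ier3 and Spry4. In 8 of 10 the TNBS PF libraries lay above every control PF library, against 13.6% of tested genes.

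Of the phosphatases, Dusp5 stood out. Dusp5 (ENSMUSG00000034765, mm10 chr19:53529109-53542431, plus strand) encodes a nuclear phosphatase selective for ERK. It had 9.54, 9.75 and 9.81 FPKM in TNBS PF 1 to 3, against 6.56, 6.30 and 7.08 FPKM in control PF 1 to 3 and 8.26, 6.004 and 7.66 FPKM in PBS 1 to 3. The TNBS PF libraries were tightly grouped and above all others, while PBS spread widely and overlapped control PF. The log2 fold change of TNBS PF over control PF was 0.48 ± 0.0822 (SE; 95% interval 0.31 to 0.66; limma adjusted p = 0.00243), the 18th highest of the 10537 genes. Over PBS it was 0.37 (limma adjusted p = 0.00780). In the annotation, 22.1% of the exonic bases of Dusp5 are shared with the antisense transcript AC137853.2, whose reads cannot be told apart from those of Dusp5 unless strand was counted.

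Dusp6 (ENSMUSG00000019960, mm10 chr10:99263231-99267489, plus strand) encodes the cytoplasmic ERK phosphatase, a classical negative feedback gene of the pathway. It had 20.9, 20.1 and 20.95 FPKM in TNBS PF, against 18.1, 18.8 and 16.4 FPKM in control PF and 16.8, 17.3 and 18.1 FPKM in PBS. All 3 TNBS PF libraries were above the other 6, and control PF and PBS overlapped. Its log2 fold change was 0.21 ± 0.0476 over control PF (limma adjusted p = 0.0134) and 0.24 over PBS (adjusted p = 0.00482). The call against control PF was lost without TNBS PF 1, TNBS PF 3 or control PF 3, at adjusted p of 0.0534, 0.0537 and 0.0524, within a range of 0.00127 to 0.0537 over 15 alternatives.

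Dusp4 (ENSMUSG00000031530, mm10 chr8:34807297-34819894, plus strand), a nuclear phosphatase of ERK, JNK and p38, had another order of groups. It had 4.51, 4.49 and 3.98 FPKM in TNBS PF, against 3.97, 4.49 and 3.44 FPKM in control PF and 5.80, 4.59 and 4.56 FPKM in PBS. TNBS PF and control PF overlapped, and PBS was above both without overlap. No comparison was called, with log2 fold changes of 0.10 for TNBS PF over control PF (limma adjusted p = 0.52), −0.16 for TNBS PF over PBS (adjusted p = 0.243) and −0.27 for control PF over PBS (adjusted p = 0.164). The ratio of Dusp6 to Dusp5, chosen after the values were seen, was 2.13 ± 0.0631 in TNBS PF, against 2.68 ± 0.336 in control PF and 2.43 ± 0.431 in PBS (SD, n = 3 each). The exact two-sided permutation p was 0.1 for TNBS PF against control PF, the smallest that 3 against 3 libraries allow (0.15 adjusted over 6 ratio comparisons). PBS overlapped both, with exact permutation p of 0.4 against TNBS PF and 0.5 against control PF.

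The Sprouty transcripts were not called by limma on FPKM in any of the 3 comparisons. Spry2 (ENSMUSG00000022114, mm10 chr14:105891947-105896819, minus strand) and Spry4 (ENSMUSG00000024427, mm10 chr18:38586247-38601415, minus strand) encode inhibitors of receptor tyrosine kinase signalling to ERK. Spry4 had 1.54, 1.45 and 1.38 FPKM in TNBS PF, against 0.742, 1.20 and 1.31 FPKM in control PF and 1.28, 1.23 and 0.983 FPKM in PBS. The TNBS PF libraries lay above all others, but control PF 1 was well under its group and the log2 fold change of 0.25 over control PF missed the threshold (95% interval 0.03 to 0.46; limma adjusted p = 0.138). By limma voom on the recovered fragments, which uses no such pseudocount, it was 0.49 and passed (adjusted p = 0.0409, within 0.0409 to 0.40 over 14 alternatives). Spry2 had 5.31, 4.57 and 4.75 FPKM in TNBS PF, 4.78, 4.69 and 4.48 FPKM in control PF and 4.21, 4.66 and 4.15 FPKM in PBS, so that the groups overlapped. Its log2 fold change was 0.05 over control PF (95% interval −0.08 to 0.19; limma adjusted p = 0.629) and 0.14 over PBS (adjusted p = 0.151).

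Of the transcription factor genes, Myc and Egr1 were called against control PF and Fosl1 was not. Myc (ENSMUSG00000022346, mm10 chr15:61985391-61990374, plus strand) encodes a factor that drives growth and ribosome production. It had 40.4, 39.1 and 40.4 FPKM in TNBS PF, against 32.8, 32.7 and 31.5 FPKM in control PF and 32.2, 33.6 and 34.6 FPKM in PBS. TNBS PF was clear of the other groups, and control PF and PBS overlapped. The log2 fold change was 0.30 ± 0.0347 over control PF (limma adjusted p = 0.000197) and 0.25 ± 0.0347 over PBS (adjusted p = 0.000442).

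Egr1 (ENSMUSG00000038418, mm10 chr18:34859823-34864984, plus strand), a zinc finger factor and a prototype of the serum response, did not share the order of Myc. It had 29.7, 28.7 and 30.8 FPKM in TNBS PF, against 26.8, 25.9 and 27.4 FPKM in control PF and 32.6, 30.8 and 32.3 FPKM in PBS. Control PF was below both other groups without overlap, and TNBS PF met PBS at its upper end. The log2 fold change of TNBS PF was 0.15 ± 0.0372 over control PF (limma adjusted p = 0.0217) and −0.10 ± 0.0372 over PBS (adjusted p = 0.0918). The call against control PF was lost without TNBS PF 1, TNBS PF 3, control PF 1 or control PF 2, at adjusted p of 0.0631, 0.0975, 0.0507 and 0.0873, within a range of 0.00193 to 0.0975 over 15 alternatives. The ratio of Egr1 to Myc, also chosen after the values were seen, was 0.745 ± 0.0165 in TNBS PF, against 0.826 ± 0.0404 in control PF and 0.954 ± 0.0496 in PBS (SD, n = 3 each). No group overlapped another. The exact two-sided permutation p was 0.1 for each pair, the smallest that 3 against 3 libraries allow and fixed once groups do not overlap. Adjusted over 6 ratio comparisons, that permutation p was 0.15.

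Fosl1 (ENSMUSG00000024912, mm10 chr19:5447547-5455946, plus strand) encodes Fra-1, an AP-1 subunit that accumulates when ERK activity lasts. It had 4.55, 4.57 and 4.21 FPKM in TNBS PF, against 3.74, 2.78 and 3.52 FPKM in control PF and 4.13, 3.12 and 2.93 FPKM in PBS. The TNBS PF libraries were above all others, though PBS 1 came close to TNBS PF 3. Over control PF the log2 fold change was 0.33 ± 0.101, which missed the threshold (limma adjusted p = 0.0543), and over PBS it was 0.32 ± 0.101, which passed it (adjusted p = 0.0469). Exons of Ccdc85b on the opposite strand cover 57.2% of the exonic bases of Fosl1. In that part the reads of both genes cannot be told apart unless fragments were counted by strand, which is not stated. Ccdc85b had 3.95 ± 0.178 FPKM in TNBS PF, 3.94 ± 0.399 FPKM in control PF and 3.49 ± 0.174 FPKM in PBS (SD, n = 3 each; limma adjusted p = 0.982 for TNBS PF over control PF and 0.167 over PBS).

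Phlda1 and Ier3 differed in where they were called. Phlda1 (ENSMUSG00000020205, mm10 chr10:111506286-111508645, plus strand) encodes a pleckstrin homology-like protein that in human cells restrains ERBB receptor signalling. It had 10.9, 9.78 and 9.16 FPKM in TNBS PF, against 7.80, 7.39 and 8.09 FPKM in control PF and 7.36, 5.95 and 6.40 FPKM in PBS. The 3 groups did not overlap, with TNBS PF highest and PBS lowest. The log2 fold change was 0.32 ± 0.0719 over control PF (limma adjusted p = 0.0128) and 0.53 ± 0.0719 over PBS (adjusted p = 0.000342), the 21st highest of all tested genes in that comparison. The call against control PF was lost without TNBS PF 1 (limma adjusted p = 0.0629), without control PF 2 (0.0532) and with no filter on low values (0.0581), within a range of 0.00247 to 0.0629 over 15 alternatives. The antisense transcript Gm28592 shares 33.0% of the exonic bases of Phlda1, and its reads cannot be told apart without strand.

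Ier3 (ENSMUSG00000003541, mm10 chr17:35821684-35822923, plus strand) had 178.3, 191.0 and 175.4 FPKM in TNBS PF, against 170.0, 167.9 and 154.8 FPKM in control PF and 148.1, 168.2 and 141.8 FPKM in PBS. TNBS PF was above all others, and control PF and PBS overlapped. Its log2 fold change was 0.14 ± 0.0567 over control PF, not called (95% interval 0.02 to 0.27; limma adjusted p = 0.128), and 0.25 ± 0.0567 over PBS, called (adjusted p = 0.00914). The call over PBS was lost with no filter on low values (limma adjusted p = 0.05001, just above the threshold) and kept in the other 14 of 15 alternatives.

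**Figure D2:**
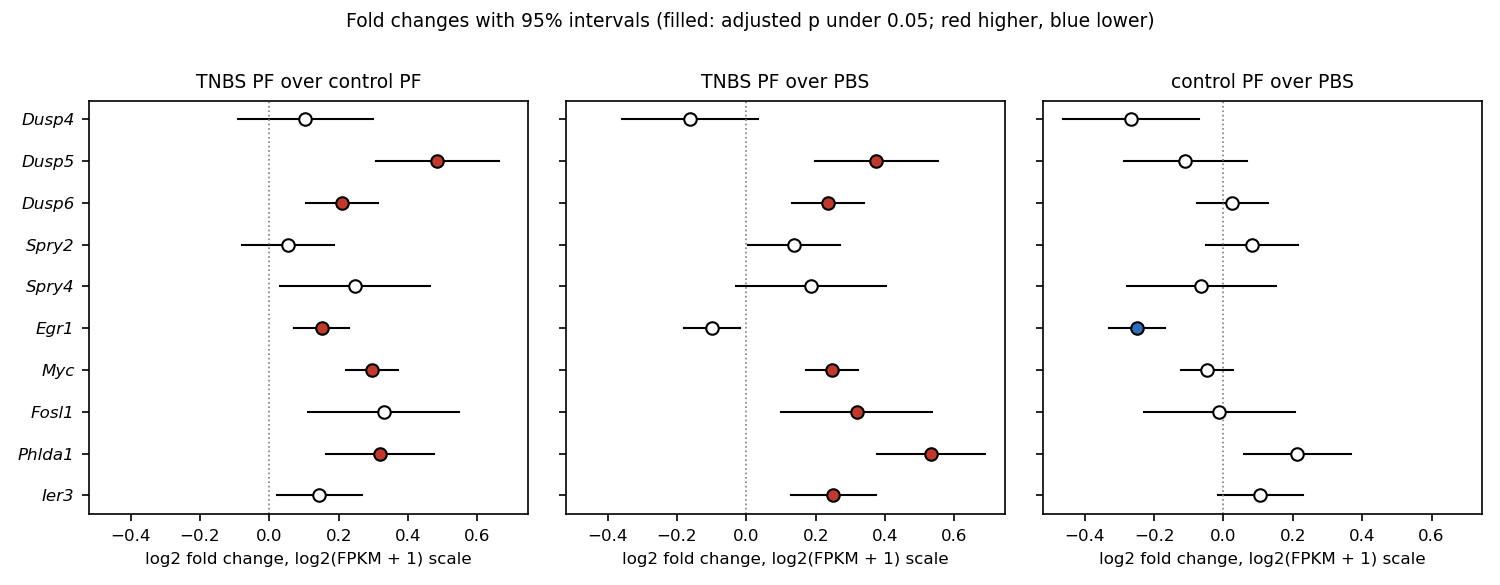
Log2 fold change of each of the 10 genes on the log2(FPKM + 1) scale with its 95% interval in TNBS PF over control PF, TNBS PF over PBS and control PF over PBS, filled where the adjusted p was under 0.05. Filled points stand at 5, 6 and 1 genes in the 3 comparisons, and the filled point of control PF over PBS, Egr1, is below 0.

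In TNBS PF against PBS, 6 of the 10 transcripts rose: Phlda1 by 1.51-fold in mean FPKM, Dusp5 by 1.33-fold, Fosl1 by 1.31-fold, and Ier3, Myc and Dusp6 by 1.19-fold each. In the same comparison 7.8% of all tested genes were called higher, 8.88% lower and 16.7% in either direction. Without overlap, 7 of 10 were above PBS, against 15.5% of tested genes, and Dusp4 was below, against 19.7%. It shares the TNBS PF libraries with the comparison against control PF, so the values of the 2 are not independent. Of the other 4, Spry2 and Spry4 had log2 fold changes of 0.14 and 0.19, and Egr1 and Dusp4 had −0.10 and −0.16. The Fosl1 call was the least stable, as it was kept in 7 of 14 alternatives and lost without any 1 of TNBS PF 1, TNBS PF 2, TNBS PF 3, PBS 2 or PBS 3, with no filter and on TPM scaling (adjusted p 0.00852 to 0.156 over the alternatives). Over all 3 groups, 7 of 10 genes had every TNBS PF library above the other 6 libraries (Dusp5, Dusp6, Fosl1, Ier3, Myc, Phlda1 and Spry4), against 8.57% of tested genes.

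Control PF against PBS asks what fluid of control mice does, and here Egr1 was the 1 gene of the 10 that changed. It fell to 26.7 ± 0.724 FPKM in control PF, against 31.9 ± 0.956 FPKM in PBS (SD, n = 3 each), or 0.837-fold. Its log2 fold change was −0.25 ± 0.0372 (limma adjusted p = 0.00413), the 114th lowest of 10537, and it was called in 15 of 15 alternatives. In this comparison 1.14% of tested genes were called lower, 1.02% higher and 2.15% in either direction. Phlda1 was higher in control PF without overlap, at a log2 fold change of 0.21 that missed the threshold (limma adjusted p = 0.161), where 9.33% of tested genes were higher without overlap. Dusp4 was lower in control PF without overlap (−0.27, limma adjusted p = 0.164), where 9.32% of tested genes were. The remaining 7 had limma adjusted p from 0.398 to 0.972.

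**Figure D3:**
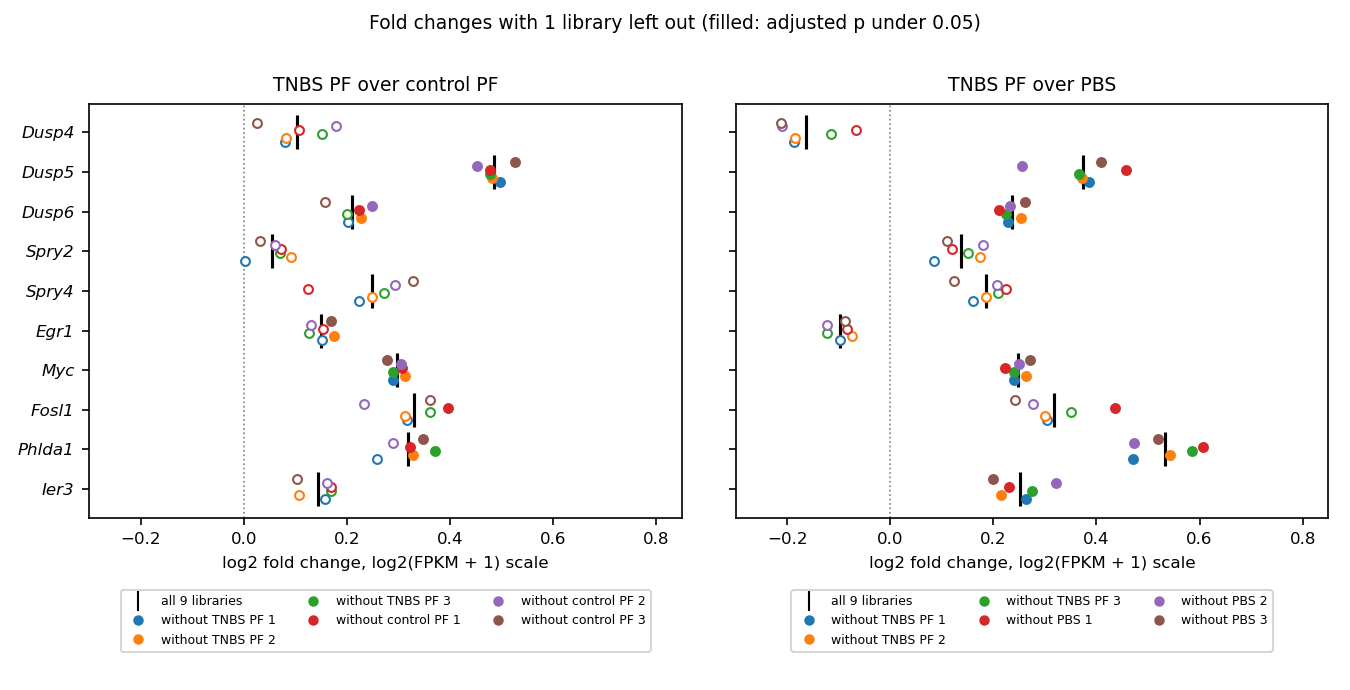
Log2 fold change of each of the 10 genes, on the log2(FPKM + 1) scale, with 1 library left out at a time (coloured points, filled where the adjusted p was under 0.05) and with all 9 libraries (black bars), for TNBS PF over control PF and TNBS PF over PBS. Dusp5 and Myc are filled at every omission in both panels, and Egr1 is right of 0 against control PF and left of 0 against PBS.

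Around the 10 genes, the ERK pathway was read from 8 gene lists, counted here without the 10. The lists were chosen with earlier results of these data known. In TNBS PF against control PF, the list of 12 tested ERK output genes, later targets whose expression tracks ERK activity, had 9 genes higher and 0 lower. Over all tested genes, 5.15% were called higher. The median log2 fold change of the list was 0.36, against −0.01 over all tested genes. The largest were Hbegf (0.49, limma adjusted p = 0.000155), which encodes an EGF receptor ligand, Ccnd1 (0.48, adjusted p = 2.47e-06), the D-type cyclin of early cell cycle, and Plaur (0.46, adjusted p = 0.000152), the urokinase receptor. Against PBS, 10 of 12 were higher and 0 lower, where 7.8% of tested genes were called higher, with Ccnd1 at 0.40 and Hbegf at 0.39.

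Other feedback and immediate early genes were counted in the same way, against 5.15%, 7.8% and 1.02% of tested genes called higher in the 3 comparisons. Of 6 further MAPK phosphatases tested, 0 were called in any of the 3 comparisons by limma or by voom, and at an unadjusted p under 0.05 there were 0, 1 and 0 in TNBS PF over control PF, TNBS PF over PBS and control PF over PBS. The share of all tested genes at that unadjusted p was not counted. All 6 had log2 fold changes above 0 in TNBS PF against control PF, where 44.3% of tested genes did. Their median was 0.10, against −0.01 over all tested genes. Of 3 further Sprouty and Spred genes, 0 were called in any comparison by limma or by voom, and 0 had an unadjusted p under 0.05. Of 14 further immediate early transcription factors, 2 were higher in TNBS PF against control PF, Maff (0.17, limma adjusted p = 0.0154), a small MAF factor, and Srf (0.16, adjusted p = 0.0497), which encodes serum response factor. The Srf call was lost in 10 alternatives, among them each omission of a library, and the Maff call without TNBS PF 2 or control PF 2 (limma adjusted p of Maff 0.0749 and 0.0676). Against PBS, Nr4a2 (0.28), Maff (0.23) and Srf (0.20) were called, Srf not without TNBS PF 3, PBS 1 or PBS 3. Of 10 other immediate early genes, 3 were higher in both comparisons. Ccn1, which encodes a secreted matrix protein, had 204.3 ± 4.53 FPKM in TNBS PF, 133.4 ± 3.20 FPKM in control PF and 139.6 ± 2.92 FPKM in PBS (SD, n = 3 each; log2 fold change 0.61 over control PF, limma adjusted p = 9.83e-08). Errfi1, an inhibitor of the EGF receptor, had 0.27 over control PF and 0.47 over PBS, and Tnfaip3, a brake on NF-kB, had 0.26 and 0.20, the last not called without TNBS PF 2 (limma adjusted p = 0.0795). Gem, named after its values were seen, was the 1 gene of that list called lower, against PBS (−0.19).

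The kinase cascades and receptors were counted against 10.6% of all tested genes called in either direction over control PF and 16.7% over PBS. In TNBS PF against control PF, 1 of 22 RAS to ERK core genes was higher (Rras2, 0.20) and 1 was lower (Shc1, −0.16), and 0 of 13 JNK and p38 core genes were called by limma or by voom (2 at an unadjusted p under 0.05). Against PBS, Rras2 (0.15) and Nras (0.14) were among the genes called higher, Shc1 (−0.13) was lower, and Mapk12 (0.21) and Mapk8 (0.20) were higher. Leaving out 1 library ended the call of Nras (TNBS PF 1, TNBS PF 3, PBS 1 or PBS 2), of Mapk8 (TNBS PF 2, TNBS PF 3, PBS 1 or PBS 2) and of Mapk12 (any but PBS 1). Of 11 growth factor receptor genes, 3 were lower against control PF: Pdgfrb (−0.39), Pdgfra (−0.38), both receptors of platelet-derived growth factor, and Erbb3 (−0.30), whose call was lost in 6 alternatives, among them any omission of a library but control PF 1. Against PBS the same 3 genes were lower, at −0.42, −0.36 and −0.37, and Axl, named after its values were seen, was higher in both comparisons (0.15 and 0.13). In control PF against PBS, Errfi1 (0.20, limma adjusted p = 0.0106) and Vegfa (0.23, adjusted p = 0.0136) were the genes of the 8 lists that were called besides Egr1, both lost with no filter on low values (adjusted p = 0.0506 and 0.0712). The Vegfa call was also lost without control PF 1 (limma adjusted p = 0.0677) or PBS 3 (0.0546).

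**Figure D4:**
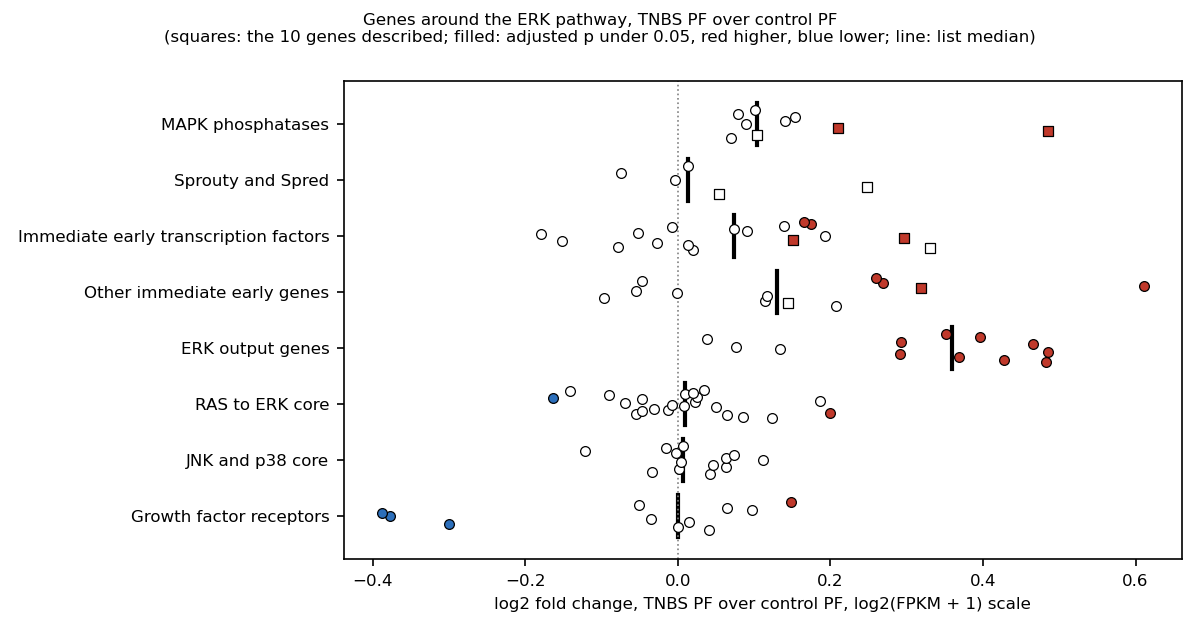
Log2 fold change of TNBS PF over control PF, on the log2(FPKM + 1) scale, for every tested gene of 8 lists (squares mark the 10 genes described, filled symbols an adjusted p under 0.05, black bars the list median). The ERK output genes have 9 filled points right of 0, and the RAS to ERK and the JNK and p38 lists centre near 0.

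By the authors' deposited table, whose test is not stated, 8, 7 and 3 of the 10 genes had a p-value under 0.05 in TNBS PF against control PF, TNBS PF against PBS and control PF against PBS. The share of all genes under 0.05 there was not counted, so these counts are a description with no background to read them against. None of the 10 reached an absolute log2 fold change of 1 in the authors' deposited table. For Dusp5 the authors' deposited table gives a log2 fold change of 0.56 in TNBS PF against control PF (p-value 4.30e-09). The deposited log2 fold changes of the 10 genes lie within 0.0198 of the log2 ratio of mean FPKM, with no pseudocount.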

How the data were processed

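Total RNA isolated with Trizol was sequenced by the submitters. The submitters' processing notes name the read trimmer cutadapt 1.15 and the genome build mm10. The aligner, the program that assigned reads and the strand are not stated. The authors deposited FPKM per library, per the file headers, with no counts beside them. The log2 fold changes and p-values that the authors deposited for each pair of groups served only as a description. FPKM multiplied by exonic lengths of GENCODE release 21 (M21) came within 0.01 of whole fragments for 97.2 to 97.3% of values under 1000 fragments, from which depth was recovered. That took in 21902 genes and left 57 without a length.

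Values were taken as log2(FPKM + 1), and a gene was tested where 3 or more libraries reached an FPKM of 1, which held for 10537 genes and for all 10 described. One limma 3.58.1 model (R 4.3.3, mean-variance trend) took all 9 libraries, with Benjamini-Hochberg adjustment at 0.05. The median standard error in TNBS PF over control PF was 0.0545. Nothing in the labels states what a replicate number shares, so the main fit held no replicate block. The script was tested on simulated data. Named genes outside the 10 are up to 3 called genes of largest absolute log2 fold change per list and comparison, and some of them are not reported here. The 10 genes, the lists and the tests were chosen with earlier results of these data known. Alternatives were a pseudocount of 0.1, no filter, a filter at 5 FPKM, TPM, median-ratio and quantile scaling, limma voom on recovered fragments with TMM factors, a fit of only the 2 groups compared, a replicate block, and each library left out.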

Additional observations from a re-analysis of the deposited data

How the results depend on the processing

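Dusp5 and Myc kept their calls in TNBS PF over control PF in 15 of 15 alternatives, with adjusted p of 2.64e-05 to 0.0225 and 9.80e-07 to 0.00220. The number of the 10 genes called in that comparison was 5, against 2 to 5 with 1 library left out and 8 by voom on recovered fragments. Without TNBS PF 1 the called genes were Dusp5 and Myc, and 3 genes each were called without TNBS PF 3 and without control PF 2. Over all genes, 1117, 1758 and 227 were called in TNBS PF over control PF, TNBS PF over PBS and control PF over PBS, against 661 to 860, 1148 to 1620 and 115 to 311 with 1 library left out. In control PF over PBS the count was 103 with no filter and 377 by voom. By voom the split of higher and lower calls was 921 and 599 in TNBS PF over control PF (543 and 574 by limma on FPKM) and 1278 and 921 in TNBS PF over PBS (822 and 936), and on TPM scaling it was 625 and 1152 in the last. Directions that changed all belonged to fold changes that were not called: Fosl1 in control PF over PBS (0.00084 by voom, −0.087 to 0.11 with 1 library left out), Spry4 (−0.14 to 0.061) and Dusp6 (−0.013 to 0.078) in control PF over PBS with 1 library left out, and Ccdc85b in TNBS PF over control PF (−0.0017 on TPM scaling, −0.031 to 0.069 with 1 library left out). The cause was not tested. The labels do not state what a replicate number shares, so the replicate block was not used for the calls. Deviations from the group means correlated at r of −0.0978 to 0.0746 over the 9 pairs of libraries with the same number. With the block, 7 of the 10 genes and 906 genes in all were called in TNBS PF over control PF, 1537 in TNBS PF over PBS and 169 in control PF over PBS. The added members were Fosl1 (adjusted p = 0.0352) and Ier3 (adjusted p = 0.0430), and no called member was lost. Spry4 was read by 70 to 184 fragments a library and Fosl1 by 105 to 238. The log2 fold change of Spry4 in TNBS PF over control PF ranged from 0.12 to 0.49 over the alternatives, highest by voom and at a pseudocount of 0.1, and what part of this depth accounts for was not tested.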
